A study of Mus musculus with 6 samples.

Results

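The Bcl2 family survival and death genes are the genes whose products decide, at the outer membrane of mitochondria, whether a lymphocyte lives or dies. The 10 genes described are *Bcl2*, *Bcl2l1*, *Mcl1* and *Bcl2a1b*, which protect the cell, *Bcl2l11*, *Bid*, *Bbc3* and *Pmaip1*, which promote death, and *Bax* and *Bak1*, which carry it out. They were picked by name from the 45777 genes listed in the data, by their function and not by a measured value. The choice was made with earlier results of these data known. The bulk RNA sequencing compared splenic CD4+Lrig1+ with CD4+Lrig1- T cells, both isolated from female mice of the inbred strain C57BL/6 that were 7 weeks old. The sources name no treatment and no engineered allele for either group, and the cells were separated by whether they carried the surface protein Lrig1. The labels list 3 samples of each group, and 4 libraries are described here, held in 2 deposited tables (called set 1 and set 2) with 1 library of each group per table.

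In the intrinsic death pathway the BH3-only proteins, such as Bim (encoded by *Bcl2l11*) and Puma (encoded by *Bbc3*), are held in check when they bind to the survival proteins. When they are in excess, the effectors Bax and Bak open pores in the mitochondrial membrane, cytochrome c leaks out and caspases are activated. In CD4+ T cells the balance is known to be set by cytokines of the IL-2 and IL-7 kind and by antigen receptor signals, and regulatory T (Treg) cells are known to depend on Mcl1.

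The libraries held 44865070 to 59977951 estimated counts on genes. *Lrig1* itself was at 221 and 129 CPM (counts scaled to the size of each library by the TMM method) in the CD4+Lrig1+ libraries of sets 1 and 2, against 75.4 and 36.7 in the CD4+Lrig1- libraries, in the direction of the labels. The 12 T cell identity markers, such as *Cd3e* and *Cd4*, summed to 5974 to 8568 CPM with none at 0. All 12 Treg markers passed the test as higher in CD4+Lrig1+ cells, with sums of 3115 and 3132 CPM against 333 and 309. The 12 B cell markers summed to 105 and 428 CPM in CD4+Lrig1+ and to 85.9 and 853 in CD4+Lrig1- cells, the 12 myeloid markers to 106 and 344 against 87.1 and 391, the 10 NK cell markers to 60.1 and 147 against 106 and 280, and the 2 CD8 T cell markers to 14.1 and 51.6 against 19.5 and 97.3. Each of these 4 lists was higher in set 2 than in set 1 in both groups, and no gene of theirs was at 0 in any library. Of these markers, 0, 2, 1 and 0 passed as higher and 3, 4, 8 and 2 as lower in the 4 lists in turn, and their part in the results that follow was not tested.

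Of the 10 genes, 4 were higher in CD4+Lrig1+ T cells (*Bcl2a1b*, *Bcl2l1*, *Bid* and *Bak1*), 1 was lower (*Bcl2*), and 5 did not pass the test (*Mcl1*, *Bcl2l11*, *Bbc3*, *Pmaip1* and *Bax*). The 2 largest differences were within the survival group, where *Bcl2a1b* was 2.70-fold and *Bcl2l1* 2.25-fold higher, and *Bcl2* of the same group was 1.40-fold lower. The test was edgeR's quasi-likelihood test with the set of each library as a term, at an adjusted p under 0.05 over the 16123 genes that passed the filter on low counts, and all 10 genes passed that filter. In that test 27.4% of all genes were called, 14.6% as higher and 12.8% as lower. The median log2 fold change was 0.20 over the 10 genes and -0.04 over all genes tested. The direction was shared by both sets for 9 of the 10, 5 of them higher and 4 lower, against 77.7% of all genes.

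These calls depend on the set term. In the same edgeR test without it, none of the 10 genes was called, with an adjusted p of 0.685 for *Bcl2l1* and of 1.00 for each of the others, and 0.0% of all genes were called. At an unadjusted p under 0.05 that fit held 5.59% of all genes and 1 of the 10, *Bcl2l1*. DESeq2's Wald test without the set term called 1.94% of all genes and 0 of the 10, and with it 23.6% and 4 of the 10 (all but *Bak1* of the 5). The labels do not say that the libraries came from separate mice, so p-values measure the spread between these libraries. With the set term that spread is how far the 2 sets disagree on the group difference, and its estimate borrows from other genes. An exact permutation test of 2 libraries against 2 cannot give a p below 0.333. In bulk samples, fewer cells of a type and less RNA per cell cannot be told apart.

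**Figure D1:**
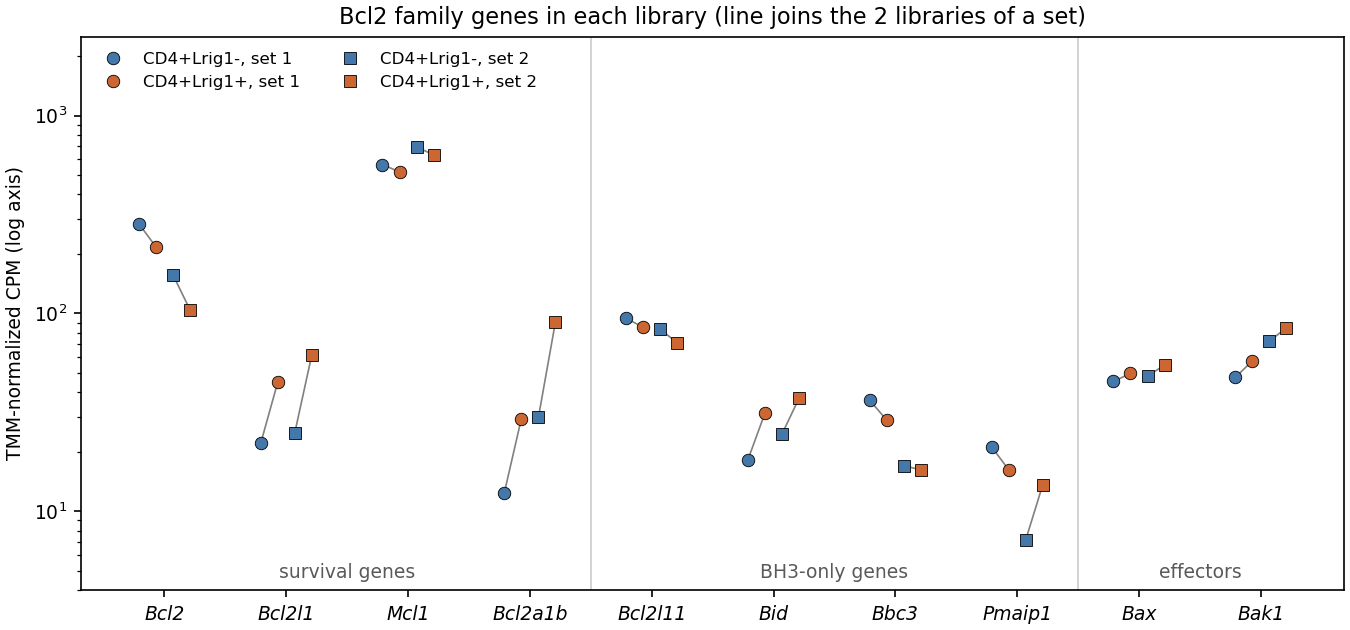
Each point is the TMM-normalized CPM of 1 gene in 1 library on a log axis, with CD4+Lrig1- in blue and CD4+Lrig1+ in orange, set 1 as circles and set 2 as squares, and a line joining the 2 libraries of a set. The lines climb steeply for *Bcl2l1*, *Bcl2a1b* and *Bid*, descend for *Bcl2*, and run in opposite directions for *Pmaip1*.

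*Bcl2l1* (gene ID 12048, chromosome 2 of GRCm38, 152758732 to 152833803) encodes Bcl-xL, a survival protein that activated T cells are known to produce. It was at 22.1 CPM in the CD4+Lrig1- and 44.9 CPM in the CD4+Lrig1+ library of set 1, and at 24.9 and 61.8 CPM in set 2. The lowest CD4+Lrig1+ value exceeded the highest CD4+Lrig1- value. Its log2 fold change was 1.17 (SE 0.10, 95% interval 0.93 to 1.40, adjusted p = 2.32e-04), with log2 ratios of 1.02 and 1.31 within sets 1 and 2. Of all genes tested, 8.53% had a larger log2 fold change.

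*Bcl2a1b* (gene ID 12045, chromosome 9, 89199273 to 89207838) encodes a copy of A1, a survival protein known as a target of NF-kB. Its CPM was 12.4 in CD4+Lrig1- and 29.4 in CD4+Lrig1+ cells of set 1, and 29.9 and 90.7 in set 2. It was higher in CD4+Lrig1+ cells within each set, yet the groups overlapped by a narrow margin, since the CD4+Lrig1+ library of set 1 lay just under the CD4+Lrig1- library of set 2. The log2 fold change was 1.43 (SE 0.11, 95% interval 1.18 to 1.69, adjusted p = 1.43e-04), with 1.24 in set 1 and 1.60 in set 2, and 6.93% of the genes tested had a larger one. Set 2 exceeded set 1 by a log2 difference of 1.26 in CD4+Lrig1- and 1.62 in CD4+Lrig1+ cells, about as much as the groups differed.

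The mouse genome holds near-identical copies of this gene, and 2 others, *Bcl2a1a* and *Bcl2a1d*, have rows of their own in the data. The first 120 bases of the 519-base coding sequence (GENCODE transcripts on GRCm38, 5′ to 3′) are shown because they bear on how well short reads separate the copies, with the 7 positions at which the copies differ in capitals:
Bcl2a1a: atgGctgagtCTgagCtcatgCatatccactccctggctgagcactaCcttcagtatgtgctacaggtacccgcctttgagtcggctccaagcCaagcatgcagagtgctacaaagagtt
Bcl2a1b: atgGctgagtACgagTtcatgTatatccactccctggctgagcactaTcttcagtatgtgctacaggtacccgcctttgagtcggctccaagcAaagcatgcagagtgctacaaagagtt
Bcl2a1d: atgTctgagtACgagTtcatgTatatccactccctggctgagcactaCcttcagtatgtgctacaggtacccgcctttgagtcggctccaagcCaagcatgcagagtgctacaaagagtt

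Over the whole coding sequence 12 positions differed among the copies, *Bcl2a1b* and *Bcl2a1d* were 98.8% identical, and *Bcl2a1a* and *Bcl2a1b* were 97.9% identical. The printed stretch was chosen because no other of 120 bases held more differing positions, so the copies are less distinct elsewhere. Of the 470 windows of 50 bases (the length of 1 read) in the *Bcl2a1b* coding sequence, 246 (52.3%) occur in another copy too, as do 74.0% of those of *Bcl2a1a* and 83.6% of those of *Bcl2a1d*. The division of counts among the copies is therefore uncertain, to a degree that was not tested. The other read of a pair and the bases outside the coding sequence were not searched. *Bcl2a1d* was at 5.10 and 9.67 CPM in CD4+Lrig1- and CD4+Lrig1+ cells of set 1 and at 11.96 and 29.6 CPM in set 2 (log2 fold change 1.13, SE 0.13, adjusted p = 8.73e-04). *Bcl2a1a*, the lowest of the 3, was at 2.74, 3.10, 5.94 and 11.5 CPM in the same order, and did not pass the test (0.60, SE 0.22, adjusted p = 0.0833). With the counts of the 3 copies summed before the fit, which removes the division among them, the log2 fold change was 1.27 (SE 0.11, adjusted p = 2.49e-04).

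**Figure D2:**
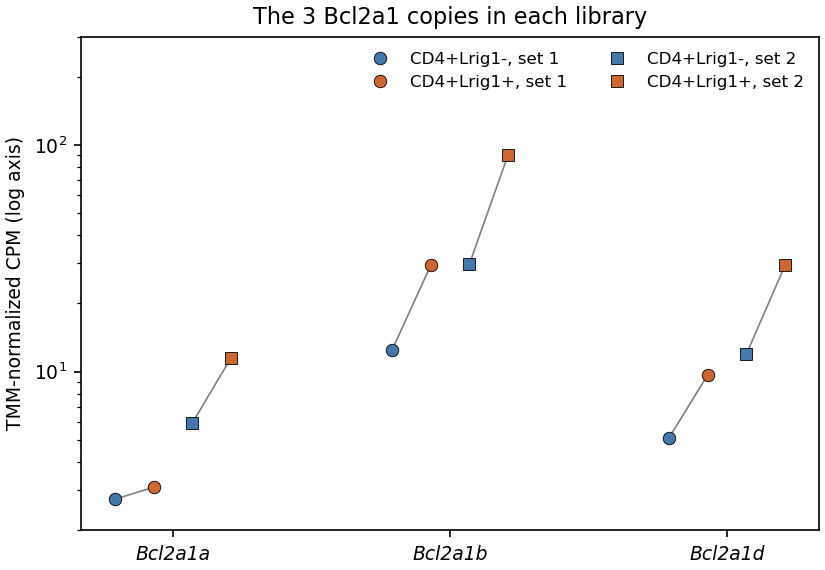
TMM-normalized CPM (log axis) of *Bcl2a1a*, *Bcl2a1b* and *Bcl2a1d* in each library, coloured by group and shaped by set, with lines joining the 2 libraries of a set. Every line climbs from CD4+Lrig1- to CD4+Lrig1+, least for *Bcl2a1a* in set 1 (2.74 to 3.10 CPM), and *Bcl2a1b* is the most abundant copy in each library.

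*Bcl2* (gene ID 12043, chromosome 1, 106538176 to 106714290) encodes the founding survival protein of the family, which IL-7 is known to maintain in resting T cells. It was at 284 CPM in CD4+Lrig1- and 217 CPM in CD4+Lrig1+ cells of set 1, and at 157 and 104 CPM in set 2. The CD4+Lrig1+ library was the lower of its pair in both sets, but the groups overlapped, because the CD4+Lrig1+ library of set 1 exceeded the CD4+Lrig1- library of set 2. The log2 fold change was -0.49 (SE 0.083, 95% interval -0.68 to -0.29, adjusted p = 0.00524), with -0.39 in set 1 and -0.59 in set 2. *Bcl2* differed more between the sets than between the groups, by log2 differences of -0.86 in CD4+Lrig1- and -1.06 in CD4+Lrig1+ cells for set 2 over set 1.

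*Mcl1* (gene ID 17210, chromosome 3, 95656944 to 95663179) encodes a short-lived survival protein on which T cells and Treg cells are known to depend. Its CPM was 565 in CD4+Lrig1- and 519 in CD4+Lrig1+ cells of set 1, and 695 and 632 in set 2. Both ratios pointed down by a similar amount, and the groups overlapped. The log2 fold change of -0.13 (SE 0.091) did not pass the test (adjusted p = 0.336), and its 95% interval of -0.34 to 0.08 leaves a decrease or a small increase possible. Of the 4 survival genes, therefore, 2 were called higher, 1 lower and 1 not called.

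**Figure D3:**
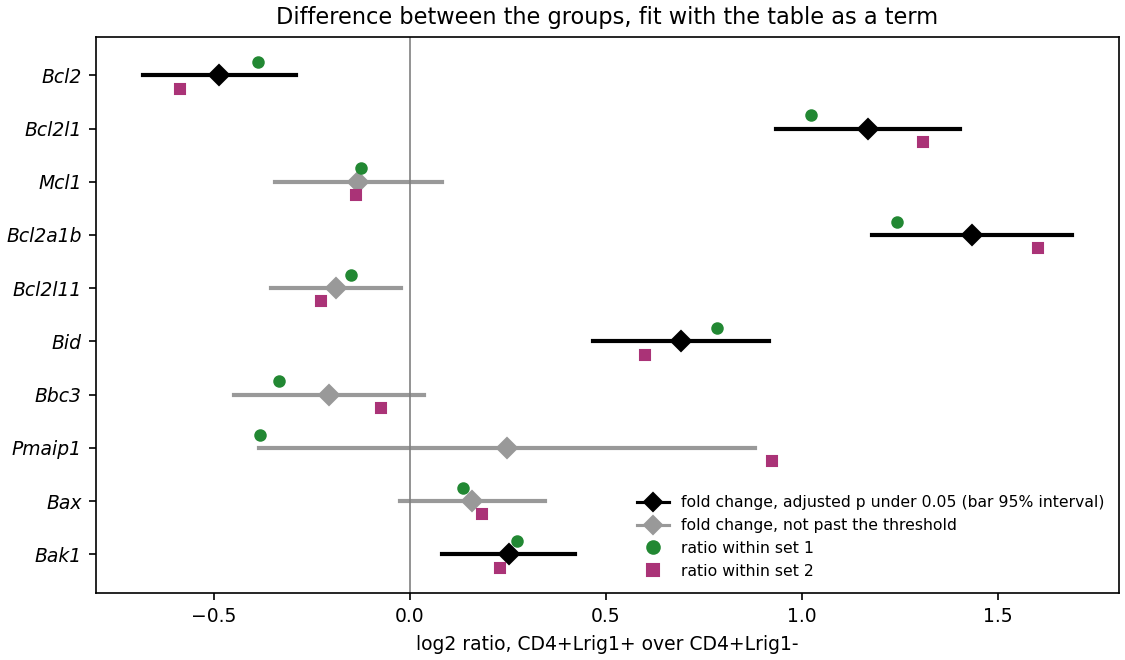
Diamonds are log2 fold changes of CD4+Lrig1+ over CD4+Lrig1- with 95% intervals as bars, black where the adjusted p was under 0.05, and the green circles and purple squares are the log2 ratios within set 1 and set 2. *Bcl2a1b* (1.43) and *Bcl2l1* (1.17) lie farthest to the right, *Bcl2* (-0.49) farthest to the left, and the ratios of *Pmaip1* (-0.38 and 0.92) fall on opposite sides of 0.

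Among the BH3-only genes, *Bid* (gene ID 12122, chromosome 6, 120893119 to 120917062) was the one that passed the test. Its protein links death receptors to mitochondria once caspase-8 has cut it. *Bid* was at 18.3 CPM in CD4+Lrig1- and 31.4 CPM in CD4+Lrig1+ cells of set 1, and at 24.6 and 37.3 CPM in set 2. The groups did not overlap. The log2 fold change was 0.69 (SE 0.095, 95% interval 0.47 to 0.91, adjusted p = 0.00200), a 1.61-fold difference, with 0.78 in set 1 and 0.60 in set 2.

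*Bcl2l11* (gene ID 12125, chromosome 2, 128126038 to 128162547) encodes Bim, the BH3-only protein that is known to kill T cells deprived of cytokine and self-reactive thymocytes. It was at 94.5 and 85.2 CPM in CD4+Lrig1- and CD4+Lrig1+ cells of set 1, and at 83.2 and 71.1 CPM in set 2. CD4+Lrig1+ cells were the lower of each pair, with log2 ratios of -0.15 and -0.23. The log2 fold change of -0.19 (SE 0.070, 95% interval -0.35 to -0.02) missed the threshold (adjusted p = 0.0905) and passed it with 2 other settings, at an adjusted p of 0.0386 with DESeq2's size factors and 0.0339 with genes of at least 10 counts in every library.

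*Bbc3* (gene ID 170770, chromosome 7, 16308398 to 16318334) encodes Puma, a BH3-only protein that p53 is known to induce. Its CPM was 36.4 in CD4+Lrig1- and 28.9 in CD4+Lrig1+ cells of set 1, and it was 17.0 and 16.2 in set 2. The log2 fold change was -0.21 (SE 0.10, 95% interval -0.45 to 0.04, adjusted p = 0.184), with -0.33 in set 1 and -0.07 in set 2. Here too the sets lay further apart than the groups, by -1.09 and -0.83 on the log2 scale.

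*Pmaip1* (gene ID 58801) encodes Noxa, a BH3-only protein that binds Mcl1. It was at 21.2 and 16.2 CPM in CD4+Lrig1- and CD4+Lrig1+ cells of set 1, and at 7.17 and 13.6 CPM in set 2. It was the only one of the 10 genes with opposite directions, with a log2 ratio of -0.38 in set 1 and 0.92 in set 2, and its fitted value (0.25, SE 0.27, 95% interval -0.39 to 0.88, adjusted p = 0.553) lies between those. The CD4+Lrig1- library of set 2 was the lowest of the 4, with 387 counts.

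Both effector genes were higher in CD4+Lrig1+ cells in each set, by small amounts, and 1 of them was called. The protein of *Bak1* (gene ID 12018, chromosome 17, 27019812 to 27028627) sits in the mitochondrial membrane and is held in check by Mcl1 and Bcl-xL. *Bak1* was at 47.5 and 57.5 CPM in CD4+Lrig1- and CD4+Lrig1+ cells of set 1, and at 72.3 and 84.7 CPM in set 2. The groups overlapped across sets. The 1.19-fold difference (log2 fold change 0.25, SE 0.073, 95% interval 0.08 to 0.42) was called at an adjusted p of 0.0396, close to the threshold. It was not called by DESeq2's Wald test with the set term (adjusted p = 0.0961) or with no filter on low counts (adjusted p = 0.103).

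*Bax* (gene ID 12028, chromosome 7, 45461695 to 45466903), whose protein moves from the cytosol to mitochondria during death, was the steadiest of the 10 genes across libraries. It was at 45.3 and 49.8 CPM in CD4+Lrig1- and CD4+Lrig1+ cells of set 1, and at 48.3 and 54.8 CPM in set 2. Although the groups did not overlap, the log2 fold change of 0.16 (SE 0.078, 95% interval -0.03 to 0.34) was not called (adjusted p = 0.179). *Bax*, *Bid* and *Bcl2l1* were the 3 of 10 genes whose groups did not overlap, and 26.1% of all genes tested had groups that did not overlap.

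Levels of different genes were compared per length, as FPKM (fragments divided by the length of the transcript and the fragments mapped in the library), with no test. *Mcl1* was the highest of the 10 genes in every library, at 156 and 143 FPKM in CD4+Lrig1- and CD4+Lrig1+ cells of set 1 and 168 and 164 FPKM in set 2. *Pmaip1* was the lowest in every library, at 2.27 to 7.67 FPKM. *Bbc3* in set 2, slightly lower in CD4+Lrig1+ cells by CPM, was slightly higher there by FPKM, at 7.40 in CD4+Lrig1- and 7.58 in CD4+Lrig1+ cells. *Bax*, at 47.0 to 57.1 FPKM, had rank 2 in 3 libraries and rank 3 in the CD4+Lrig1+ library of set 2.

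*Bcl2* and *Bcl2a1b* changed places in this order between libraries. In CD4+Lrig1- cells of set 1 *Bcl2* was at 39.9 FPKM and *Bcl2a1b* at 15.6, while in the CD4+Lrig1+ library of that set they were at 30.0 and 37.0. In set 2 *Bcl2a1b* was above *Bcl2* in both groups, at 33.0 against 18.8 FPKM in CD4+Lrig1- cells and 107 against 13.3 FPKM in CD4+Lrig1+ cells. *Bcl2l1*, at 7.77 and 15.4 FPKM in set 1 and 8.13 and 18.6 FPKM in set 2, exceeded *Bcl2* in the CD4+Lrig1+ library of set 2 and was below it in the other libraries. The ratio of *Bcl2* to *Bcl2l1* FPKM was 5.13 in CD4+Lrig1- and 1.95 in CD4+Lrig1+ cells of set 1, and 2.32 and 0.713 in set 2, lower in CD4+Lrig1+ cells of both sets.

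The make-up of the summed FPKM of the 4 survival genes followed these levels. The *Mcl1* share was 71.1% in CD4+Lrig1- and 63.4% in CD4+Lrig1+ cells of set 1, and 73.7% and 54.1% in set 2. The *Bcl2* share was 18.2% and 13.3% in set 1 and 8.25% and 4.38% in set 2, whereas that of *Bcl2l1* was 3.55% and 6.82%, then 3.56% and 6.14%. The *Bcl2a1b* share was 7.11% and 16.4% in set 1 and 14.5% and 35.4% in set 2. In each set the shares of *Mcl1* and *Bcl2* were thus smaller and those of *Bcl2l1* and *Bcl2a1b* larger in CD4+Lrig1+ cells. Each share depends on the levels of all 4 genes, so all are subject to the division of counts among the *Bcl2a1* copies. The smaller *Mcl1* share reflects in part the higher *Bcl2a1b* level, as *Mcl1* itself was at 156 and 143 FPKM in set 1 and 168 and 164 in set 2.

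**Figure D4:**
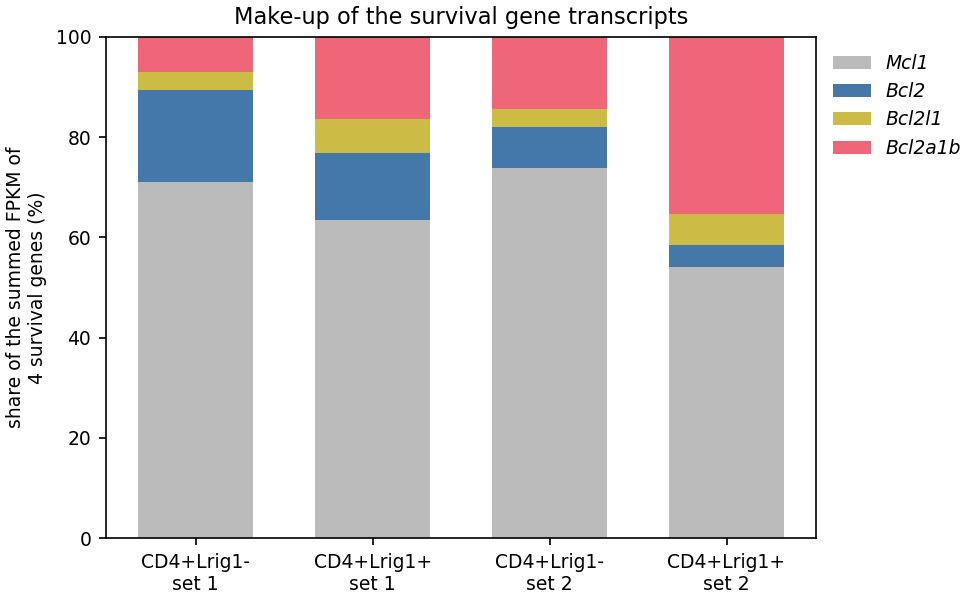
Stacked bars give, for each library, the percent of the summed FPKM of 4 survival genes that came from *Mcl1*, *Bcl2*, *Bcl2l1* and *Bcl2a1b*. The *Bcl2a1b* segment is larger and the *Bcl2* segment smaller in the CD4+Lrig1+ bar of each set, and *Mcl1* makes up over 50% of every bar.

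Survival and death transcripts set against each other differed more between sets than between groups. The summed FPKM of the 4 survival genes over that of the 4 BH3-only genes was 4.08 in CD4+Lrig1- and 4.30 in CD4+Lrig1+ cells of set 1, and 6.54 and 7.05 in set 2. The higher value in CD4+Lrig1+ cells of each set depended on *Bcl2a1b*, at 15.6 and 37.0 FPKM in set 1 and 33.0 and 107 in set 2. The counts of that gene are subject to the division among its copies. The ratio of *Bcl2* to *Bcl2l11* was lower in CD4+Lrig1+ cells, at 2.20 and 1.85 in set 1 and 1.32 and 1.03 in set 2. *Mcl1* over *Bcl2l11*, by contrast, was slightly higher in CD4+Lrig1+ cells, at 8.58 and 8.80 in set 1 and 11.8 and 12.7 in set 2. The ratio of *Bcl2* to *Bax* was 0.797 and 0.545, then 0.401 and 0.232, again lower in CD4+Lrig1+ cells. These ratios are of transcripts and say nothing of protein.

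The data list 44 transcripts of the 10 genes, and 36 of them could be tested. None was called by edgeR's quasi-likelihood test with the set term (smallest adjusted p = 0.881), where 0.0% of all 45339 transcripts tested were called. At an unadjusted p under 0.05 there were 2 of the 36, the *Bcl2a1b* transcript and variant 1 of *Bcl2*, against 4.78% of all transcripts. *Bcl2* and *Mcl1* were each almost entirely 1 transcript, with 97.7% to 99.4% of *Bcl2* counts from variant 1 and 99.89% to 99.98% of *Mcl1* counts from a single transcript.

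*Bcl2l1* was spread over more transcripts, and their estimated counts were uneven. The curated variant 3 held 566 and 896 counts in CD4+Lrig1- and CD4+Lrig1+ cells of set 1, and 583 and 1090 in set 2. The predicted variant X1 held 159 and 816 counts in set 1 and 14 and 1529 in set 2, or 15.1% and 34.9% of the gene's counts, then 1.04% and 43.1%. Its log2 fold change of 4.42 had an SE of 1.89 and an adjusted p of 0.899. Both transcripts had more counts in CD4+Lrig1+ cells in each set, as had variant 1 (111 and 240, then 358 and 432). Variant 5 (87 and 307, then 302 and 165) and predicted variant X2 (93 and 0, then 0 and 225) ran in opposite directions in the sets. The division among isoforms is estimated and no isoform was called.

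For *Bcl2l11*, whose isoforms encode longer and shorter forms of Bim, variants 1 and 2 held most of the counts. Variant 1 was at 1478 and 1980 counts in CD4+Lrig1- and CD4+Lrig1+ cells of set 1, and at 2448 and 2503 in set 2. Variant 2 was at 2096 and 1831, then 1519 and 1117. Variant 2 had fewer counts in CD4+Lrig1+ cells in each set (log2 fold change -0.41, SE 0.16) and variant 1 did not (0.14, SE 0.17), and the adjusted p-values of 0.887 and 0.903 do not separate either from 0.

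Other genes of the death pathway were taken from 4 lists by function, and their counts stand beside 14.6% of all genes tested called higher and 12.8% called lower. Of 15 further members of the Bcl2 family, 12 were tested, 4 passed as higher and 0 as lower, and the median log2 fold change was 0.27. Beside *Bcl2a1d* these were *Bcl2l14* (1.26, SE 0.27, at 1.07 to 4.13 CPM), *Bcl2l2*, which encodes the survival protein Bcl-w (0.71, SE 0.16), and *Bad*, a BH3-only gene (0.45, SE 0.11). The 8 others that were tested did not pass, among them *Bmf*, a BH3-only gene (0.09, SE 0.12), and *Bcl2l13* (-0.21, SE 0.070).

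In the list of downstream death machinery, 2 of 19 genes were higher, 0 were lower and the median log2 fold change was 0.05. That list also holds *Casp8* and the channel genes *Vdac1*, *Vdac2* and *Vdac3*. *Birc5*, which encodes survivin and is known as a gene of dividing cells (0.99, SE 0.24, at 1.61 to 4.37 CPM), and *Htra2*, which encodes a mitochondrial protease (0.35, SE 0.099, at 14.2 to 21.6 CPM), were called, and their groups did not overlap. The initiator *Casp9* (-0.10, SE 0.11), *Apaf1*, which forms the apoptosome (0.12, SE 0.078), *Cycs*, which encodes cytochrome c (0.08, SE 0.073), and the caspase inhibitor *Xiap* (0.05, SE 0.086) did not pass the test.

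In the death receptor arm, 3 of 10 genes were higher and 3 lower. The higher ones were *Tnfrsf1b*, which encodes TNF receptor 2 (1.85, SE 0.079), *Tnfsf10*, which encodes the ligand TRAIL (0.57, SE 0.090), and the death receptor *Fas* (0.47, SE 0.090). The lower ones were the ligand *Fasl* (-0.60, SE 0.13), *Tnfrsf1a*, which encodes TNF receptor 1 (-0.59, SE 0.077), and the inhibitor *Cflar* (-0.36, SE 0.079). *Casp8*, which encodes the protease that cuts Bid, was at 140 and 144 CPM in set 1 and 179 and 155 CPM in set 2, in opposite directions (log2 fold change -0.08, SE 0.086, adjusted p = 0.544).

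Of 22 regulators upstream of the family, 21 were tested, 8 were higher and 4 lower. The 3 largest differences were of cytokine receptor genes, with *Il2ra* at 4.05 (SE 0.22), *Il2rb* at 1.98 (SE 0.11) and *Il7r* at -1.25 (SE 0.16) on the log2 scale, while *Il2rg*, which encodes the receptor chain shared by IL-2 and IL-7, did not pass the test (-0.14, SE 0.097, adjusted p = 0.352). *Il7r*, the receptor chain for IL-7, was at 606 and 326 CPM in CD4+Lrig1- and CD4+Lrig1+ cells of set 1 and at 579 and 190 CPM in set 2. *Il7r* was lower in CD4+Lrig1+ cells of both sets, as was *Bcl2*, and so were 6654 of the 16123 genes tested. A link between *Il7r* and *Bcl2* was not tested. *Il2ra* is also one of the Treg markers.

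Of the NF-kB genes, *Nfkb2* (0.76, SE 0.075), *Relb* (0.69, SE 0.076), *Nfkb1* (0.66, SE 0.083) and *Rel* (0.58, SE 0.073) were higher, and *Rela* did not pass the test (0.09, SE 0.072). *Stat5a*, which acts downstream of IL-2 and IL-7 receptors, was higher (0.50, SE 0.073), as was the kinase gene *Pim1* (0.74, SE 0.076). The transcription factor genes *Foxo1* (-0.38, SE 0.086) and *Foxo3* (-0.24, SE 0.072), known activators of *Bcl2l11*, and *Pim2* (-0.35, SE 0.083) were lower. *Trp53*, which encodes p53, was not called (-0.05, SE 0.074, adjusted p = 0.653), nor was *Huwe1*, which encodes a ubiquitin ligase of Mcl1 (-0.09, SE 0.091). Over the 4 lists 17 of 62 tested genes were higher and 7 lower, and nothing particular to the lists is read from these counts. Without the set term 0 of them were called by edgeR and 3 by DESeq2.

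**Figure D5:**
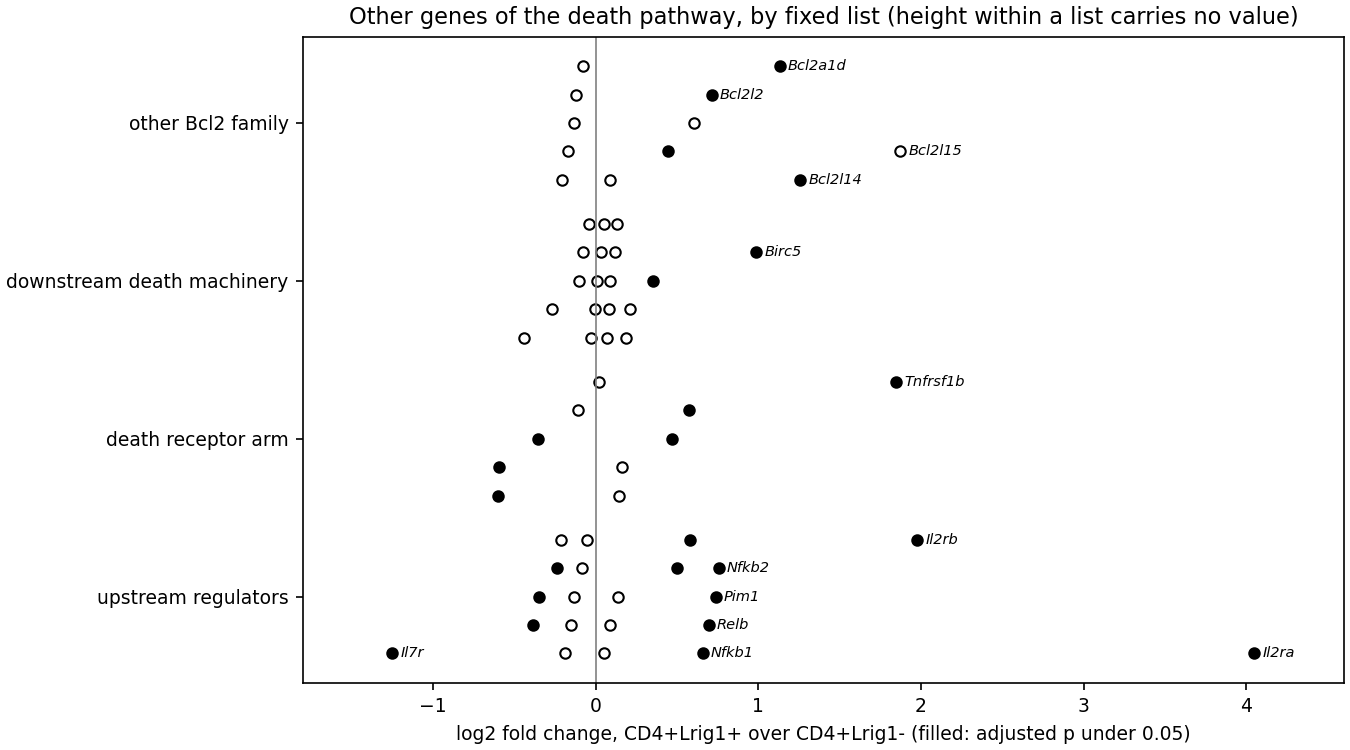
Each circle is 1 tested gene of a list, placed by its log2 fold change of CD4+Lrig1+ over CD4+Lrig1- on the horizontal axis, filled where the adjusted p was under 0.05. Filled circles of the first 2 lists all lie to the right of 0 (4 and 2), and those of the lower 2 lists lie on both sides, from *Il7r* at -1.25 to *Il2ra* at 4.05.

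The letters of the promoters of these genes were searched on both strands for 3 short motifs, because genes of the factors that bind them are in the list of regulators. Windows from 250 bases before to 50 after the RefSeq start (GRCm38.p6) covered 9 of the 10 genes, all but *Pmaip1*, with 14 windows in all. The STAT motif TTCNNNGAA occurred in 0 of the 14 and in 8.30% of all 32851 promoters. The NF-kB motif (GGG, any 3 bases, TTCC) occurred in 3 of them (*Bcl2l1*, *Mcl1* and *Bbc3*) and in 5.56% of all, and the FoxO motif GTAAACA in 2 (*Bcl2l11* and *Bbc3*) and in 3.65% of all. The 250 bases before the start are printed for 1 window each of *Bcl2l1* (chr2:152830718-152830967, minus strand) and *Bcl2l11* (chr2:128125788-128126037, plus strand), 5′ to 3′ along the gene. They show a match of the NF-kB and of the FoxO motif, whose first bases lie 218 and 227 bases before the start, in capitals:
Bcl2l1: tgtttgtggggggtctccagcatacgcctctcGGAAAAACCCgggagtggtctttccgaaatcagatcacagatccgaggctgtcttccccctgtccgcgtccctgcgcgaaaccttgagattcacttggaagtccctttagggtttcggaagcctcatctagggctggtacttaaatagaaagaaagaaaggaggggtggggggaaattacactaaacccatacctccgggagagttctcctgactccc
Bcl2l11: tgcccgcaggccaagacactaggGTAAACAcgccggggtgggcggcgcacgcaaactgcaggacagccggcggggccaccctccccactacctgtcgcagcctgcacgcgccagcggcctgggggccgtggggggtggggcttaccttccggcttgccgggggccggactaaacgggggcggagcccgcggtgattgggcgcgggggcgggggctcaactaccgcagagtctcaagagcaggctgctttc

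The match in *Bcl2l1* is the motif read on the other strand. The single *Bcl2a1b* window, which belongs to the gene with the largest log2 fold change of the 10, held none of the 3 motifs, nor did the windows of *Bcl2*, *Bid*, *Bax* and *Bak1*. Such matches are descriptions of letters and not of binding.

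For 3 genes, the genes most alike in pattern were sought by the Euclidean distance of log2 CPM over the 4 libraries, each gene centred on its mean, among 8831 genes with a mean of at least 10 CPM. Nearest to *Bcl2* were *Zfp866* (distance 0.0195), *Ube4a* (0.0558) and *Kif1b* (0.0562). Nearest to *Mcl1* were *Ppm1d* (0.0376), *Eefsec* (0.0395) and *Zscan21* (0.0405). Nearest to *Bcl2l11* were *Clcn4* (0.0106), *Ulk2* (0.0109) and *Qrsl1* (0.0314). A likeness over 4 libraries is a description of this pattern alone.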

How the data were processed

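RNA of CD4+Lrig1+ and of CD4+Lrig1- T cells from mouse spleen was made into libraries by the authors with a stranded mRNA kit and read as paired ends of 50 bases. The submitters' processing notes name Trimmomatic 0.38, HISAT2 2.1.0, Bowtie2 2.3.4.1, StringTie 2.1.3b and the builds GRCm38 and mm10. The estimated counts, which the authors deposited for each transcript and library, are not normalized. The deposited FPKM values were scaled by the authors to transcript length and mapped fragments. TPM values, also deposited by the authors, were not used here. Another table, whose 6 sample columns are named without a clear Lrig1 group, was left out. The 4 libraries described, 2 of each group, could be matched to a group but not to individual samples.

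Counts were summed per gene, rounded, filtered with filterByExpr, normalized by TMM and tested with the quasi-likelihood test of edgeR 4.0.16 (R 4.3.3) with the deposited table (set) as a term, which leaves 1 residual degree of freedom. P-values were adjusted by Benjamini-Hochberg over all genes tested, with a threshold of 0.05. A prior count of 2 was added for log2 ratios inside a set. The standard error is the log2 fold change over the root of the F statistic. Libraries of a set deviated together from their group means (correlation 0.883 across genes), and what the tables stand for is not given in the sources used here. The steps were tested on simulated data, and Python 3.11.15 read the files.

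Alternatives were no set term, the size factors or the Wald test of DESeq2 (version 1.42.0), other filters on low counts, limma (version 3.58.1) on log2 FPKM with a pseudocount of 1 or 0.1, leaving out immunoglobulin genes, an adjusted p under 0.1, a prior count of 0.5 and leaving out each library. The Wald test without the set term was chosen after seeing the data. Use of the set term itself was planned because earlier results of these data showed larger differences between the sets than between the groups. The genes and lists were chosen with earlier results of these data known. Named were all 10 genes, the genes of the 4 pathway lists that were called or that a result turned on, largest change first, and the 3 genes most alike to *Bcl2*, *Mcl1* and *Bcl2l11*. Of the genes listed, 45679 matched RefSeq by gene ID. Some genes of the lists are not reported here. No protein sequences were used here.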

Additional observations from a re-analysis of the deposited data

How the results depend on the processing

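In fits of all 4 libraries with the set as a term, the 10 genes kept their direction under each alternative setting run, and 4 to 6 of them were called. *Bcl2*, *Bcl2l1*, *Bcl2a1b* and *Bid* passed in each of these. Over all genes 4414 were called, against 2124 with no filter on low counts, where more genes are tested, and 2927 with limma on log2(FPKM + 1). For the 4 pathway lists 24 genes were called and 14 with no filter. Without the set term (no replicate block) the calls were 0 over all genes, 0 of the 10 and 0 in the lists, and with DESeq2's Wald test they were 313, 0 and 3. Leaving out 1 library in turn, also without the set term, gave 2 to 90 calls over all genes, 0 of the 10 genes and 0 to 1 in the lists.

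In these fits the log2 fold change ranged from -1.06 to 0.074 for *Bcl2*, 0.93 to 1.43 for *Bcl2l1*, 0.47 to 2.28 for *Bcl2a1b*, -0.29 to 0.037 for *Mcl1*, -0.29 to -0.05 for *Bcl2l11*, 0.53 to 0.92 for *Bid*, -0.71 to 0.44 for *Bbc3*, -0.50 to 1.10 for *Pmaip1*, 0.08 to 0.26 for *Bax* and -0.064 to 0.59 for *Bak1*. *Bcl2* turned without the CD4+Lrig1- library of set 1, *Mcl1* and *Pmaip1* without the CD4+Lrig1- library of set 2 or the CD4+Lrig1+ library of set 1, *Bbc3* without the CD4+Lrig1- library of set 1 or the CD4+Lrig1+ library of set 2, and *Bak1* without the latter. A fit on 3 libraries weighs the sets unequally, and the share of this in the turns was not tested. With the set term a fit on 3 libraries has no residual degree of freedom, and its value is the log2 ratio of the other set.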
